A study of Mus musculus with 7 samples.

Results

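The 10 genes Sis, Lct, Mgam, Treh, Anpep, Dpp4, Enpep, Alpi, Mep1a and Mep1b encode hydrolases that stand on the microvilli of absorptive enterocytes. They were chosen by symbol, and all 10 were found among the 46671 genes of the deposited table. RNA had been sequenced from epithelium of BALB/C mice of 8 weeks, in 4 libraries from mice with MST3 (Stk24) knocked out in intestinal epithelial cells (cKO) and 3 libraries from wild-type mice (Ctrl). The sources disagree on treatment: the design text speaks of littermates that received AOM, a carcinogen, and DSS, which damages the colon, while the labels of both groups record no drug. The sources used here do not give the driver of the deletion, its allele, or whether mice were pooled. Separate mice are not stated for the libraries, so the p-values refer to the spread among libraries, which may be technical.

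Starch, sugars and peptides reach the intestinal surface as short oligomers, and their last bonds are cut outside the cell, at the brush border. The disaccharidases release monosaccharides there, the aminopeptidases and dipeptidyl peptidase trim peptides from the amino end, and the meprins cut within proteins. The enzymes are anchored in the microvillus membrane and appear as cells leave the crypt and mature on the villus. Their genes are activated in the small intestine by factors of the CDX, HNF1, HNF4 and GATA families. Alkaline phosphatase is neither a disaccharidase nor a peptidase. It removes phosphate from dietary and bacterial molecules at the same membrane.

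The sequences before the start sites of 4 of these genes are shown because they hold letters that such factors are known to recognise. They were chosen with the values below known, so a motif that genes share lends no support to a likeness of their levels. Promoters from RefSeq (build GRCm38.p6, of strain C57BL/6J and so not of these mice) were used for 9 of the 10 members. Mep1b was left out, so its promoter was not searched. In 8 of the 9, the start lay at or close to the start of a GENCODE transcript. The 250 bases before the start are given 5′ to 3′ on the gene's strand, and capitals mark the motifs searched, on either strand. CDX factors were searched by TTTATG and by the related letters TTTACA. The HNF1 search used GTTAAT, the search for GATA factors used AGATAA, and the search for HNF4 used CAAAGTCCA, all picked with these sequences in view. Sis lies at chr3:72967864-72968113 on the minus strand, Lct at chr1:128328319-128328568 on the minus strand, Treh at chr9:44672983-44673232 on the plus strand and Alpi at chr1:87101607-87101856 on the minus strand.
Sis: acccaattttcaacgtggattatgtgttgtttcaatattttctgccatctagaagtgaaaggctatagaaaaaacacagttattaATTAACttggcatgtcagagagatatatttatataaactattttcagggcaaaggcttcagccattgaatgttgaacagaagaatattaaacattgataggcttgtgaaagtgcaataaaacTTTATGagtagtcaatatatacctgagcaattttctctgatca
Lct: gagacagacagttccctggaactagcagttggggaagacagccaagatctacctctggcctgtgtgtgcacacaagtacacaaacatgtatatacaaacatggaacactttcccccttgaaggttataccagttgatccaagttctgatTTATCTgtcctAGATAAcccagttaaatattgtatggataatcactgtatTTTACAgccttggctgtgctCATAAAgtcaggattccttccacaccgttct
Treh: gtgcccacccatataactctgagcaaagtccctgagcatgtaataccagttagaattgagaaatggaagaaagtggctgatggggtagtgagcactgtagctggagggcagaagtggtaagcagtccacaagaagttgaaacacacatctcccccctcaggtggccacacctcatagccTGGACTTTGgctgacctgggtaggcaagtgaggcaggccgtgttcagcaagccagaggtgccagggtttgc
Alpi: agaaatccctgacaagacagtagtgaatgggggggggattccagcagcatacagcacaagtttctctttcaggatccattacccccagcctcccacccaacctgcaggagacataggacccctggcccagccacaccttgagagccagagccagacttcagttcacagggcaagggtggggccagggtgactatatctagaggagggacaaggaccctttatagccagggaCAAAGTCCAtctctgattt
The Sis promoter held TTTATG with its first base 43 bases before the start, and GTTAAT on the other strand. The Lct promoter held TTTACA on the gene's strand, with TTTATG on the other strand and AGATAA on each strand. CAAAGTCCA stood in Treh, on the other strand, and in Alpi, where it began 19 bases before the start. No match overlapped another. AGATAA was also present in Mgam and Dpp4, and none of the 5 motifs in Anpep, Enpep or Mep1a, of which Anpep had a GC content of 72.8%, against 31.6% in Sis. Of the 32851 promoters of the same length that were searched, the CDX letters TTTATG were held by 10.8% and TTTACA by 11.2%. The HNF1 letters were held by 6.43%, the GATA letters by 9.99% and the HNF4 letters by 0.384%. A match is a run of letters and not evidence of binding.

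Library depth was 14659708 to 19659622 reads in genes, as recovered from the deposited values in FPKM (fragments per kilobase of gene length, scaled to library size). The targeted gene Stk24 stood between 2.92 and 3.85 FPKM in cKO and between 19.4 and 21 FPKM in Ctrl (log2 difference -2.42, SE 0.12, limma adjusted p = 0.00043). The samples are labelled colorectum, but the markers of large bowel were near the lower limit of detection. The 9 of 10 listed markers found in the table summed to between 5.72 and 7.92 FPKM in cKO and between 5.73 and 6.60 FPKM in Ctrl. Hoxd12 and Hoxd13 were listed at 0 in every library, and Car1 in all but Ctrl replicate 1, where it stood at 0.0705 FPKM. The hydrolases of this report, in contrast, were among the most abundant transcripts. Lct, the lactase gene characteristic of small intestine, averaged 392 ± 126 FPKM in cKO (SD, n = 4) and 410.0 ± 88.3 FPKM in Ctrl (SD, n = 3). Markers of the ends of the small intestine ranged widely. The 8 proximal markers summed to between 629 and 942 FPKM in cKO and between 920.2 and 976 FPKM in Ctrl, led by Adh1, Cbr1 and Cyp2b10, while 2 averaged under 1 FPKM. The 8 genes listed as ileum markers summed to between 686 and 1100.25 FPKM in cKO and between 782 and 945 FPKM in Ctrl, led by Guca2a and Slc51a. Most of each sum was Guca2a, at 493 to 796 FPKM in cKO and 494 to 776 FPKM in Ctrl. Each sum thus mainly follows this gene and is not by itself a measure of ileum. Of the same list, 2 markers, Slc10a2 and Fgf15, averaged under 1 FPKM. Single genes of these regions were low. Akp3, the duodenal alkaline phosphatase of the mouse, stood between 0.817 and 2.62 FPKM in cKO and between 2.40 and 4.32 FPKM in Ctrl. Tmprss15, the duodenal enteropeptidase, stood between 1.02 and 1.98 FPKM in cKO and between 1.34 and 2.45 FPKM in Ctrl. Fabp6, the ileal bile acid binding protein, stood between 0.270 and 4.19 FPKM in cKO and between 0.234 and 3.15 FPKM in Ctrl.

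In GRCm39, the build of the table's coordinates, Lct spans chr1:128212493-128256055 and Alpi chr1:87025724-87029328, both on the minus strand. On chromosome 3 lie Sis, at chr3:72795890-72875196, and Enpep, at chr3:129062826-129126398, also on the minus strand. Mgam is at chr6:40605765-40746057 and Treh at chr9:44584530-44597602, both on the plus strand. Anpep is at chr7:79471551-79497958 and Dpp4 at chr2:62160417-62242635, both on the minus strand. The genes of the meprin chains are Mep1a, at chr17:43785215-43815034 on the minus strand, and Mep1b, at chr18:21205401-21233256 on the plus strand. Values are counted per gene, so that isoforms are not separated.

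Levels are comparable between genes here because FPKM is per length, as far as the gene lengths in the table hold. Anpep was by far the most abundant member, with a mean of 2191 FPKM over the 7 libraries, which ranked it 21 among all genes. Sis followed at 645 FPKM and Mep1b at 464 FPKM. Lct at 399.9 FPKM, Enpep at 389 FPKM, Mgam at 388 FPKM and Alpi at 368 FPKM formed a group of similar level. Within this group neighbours did not keep their order. Lct exceeded Enpep in 4 of 7 libraries, Enpep exceeded Mgam in 2 of 7, and Mgam exceeded Alpi in 4 of 7. Treh at 204 FPKM, Dpp4 at 133 FPKM and Mep1a at 66.0 FPKM came last, in this order in all 7 libraries. Anpep stood above Sis, Sis above Mep1b and Alpi above Treh in all 7 libraries, and Mep1b above Lct in 6 of 7. The length given for Mgam, 12062 bases, is the longest of the 10, and its level depends on it. Reads behind a single value ranged from 2137 for Mep1a to 183637 for Anpep, so that counting error was at most 2.16% of a value and the spread described below is not of that size. Reads of the 10 genes made up 2.29%, 2.32%, 2.83% and 2.80% of cKO libraries 1 to 4, and 2.50%, 2.61% and 1.87% of Ctrl libraries 1 to 3.

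The question for each member was whether its level differed between cKO and Ctrl epithelium. No difference was called for any of the 10. In limma, on log2(FPKM + 0.5) over the 13057 genes that averaged 0.5 FPKM or more, 0 of 10 members passed a Benjamini-Hochberg adjusted p of 0.05, where 0.0306% of all genes tested (4 genes) did. At an unadjusted p under 0.05 there were also 0 members, against 8.97% of all genes tested, and limma voom on the recovered reads called 0. The libraries of the groups overlapped for all 10 members, whereas 10.1% of all genes tested did not overlap. The mean log2 value stood above Ctrl in cKO for 7 members and below it for 3, where 48.7% of all genes tested stood above and 51.3% below. The median log2 difference was 0.12 over the members and -0.0077 over all genes tested. The count below Ctrl was 7 in place of 3 when libraries were weighted by their quality, and 6 without Ctrl replicate 3, which had the lowest value of 5 members. In bulk RNA, fewer enterocytes and less RNA per enterocyte cannot be told apart.

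**Figure D1:**
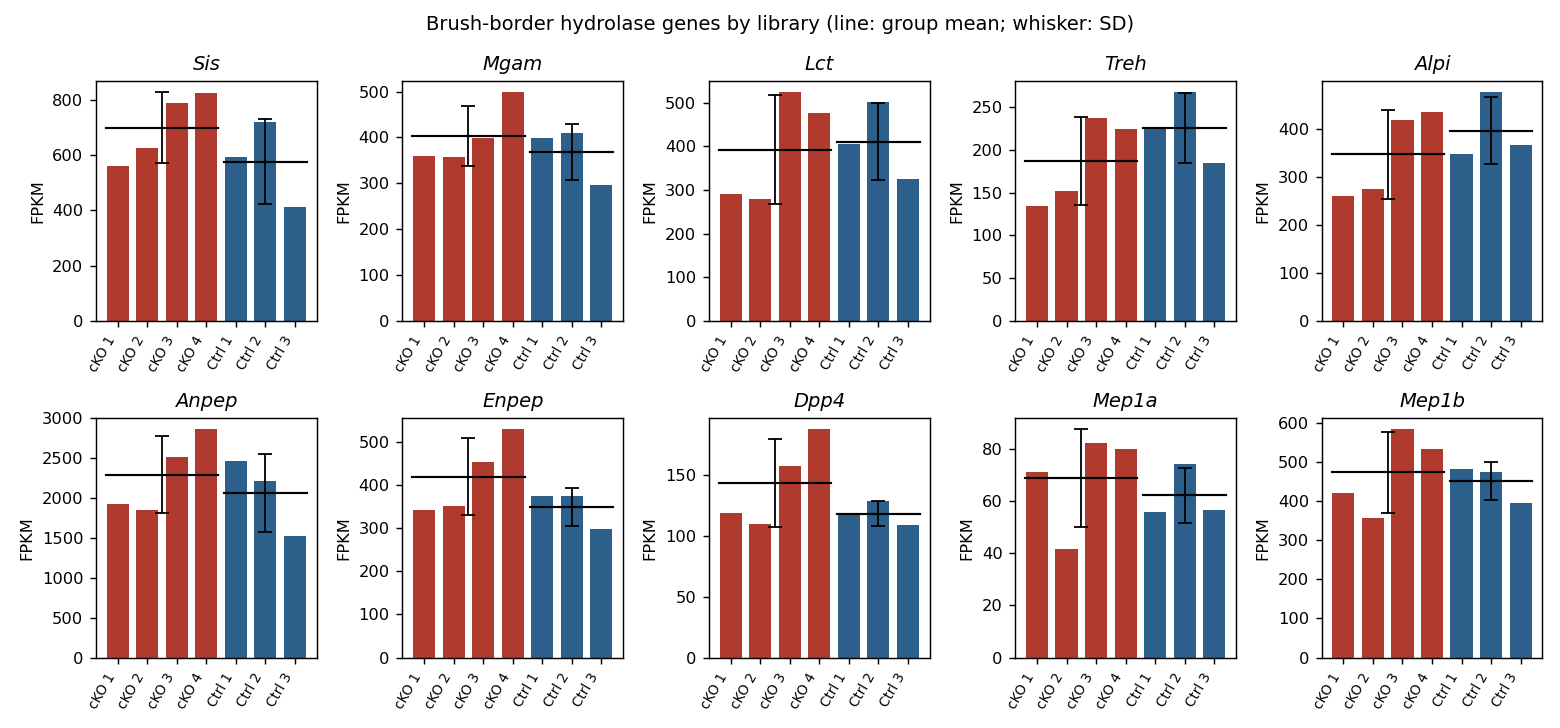
FPKM of the 10 members in each of the 4 cKO libraries (red) and 3 Ctrl libraries (blue), with the group mean as a line and the SD as a whisker; each panel has its own axis from 0. In every panel the groups overlap, and within cKO replicates 3 and 4 stand above replicates 1 and 2.

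The alpha-glucosidases Sis and Mgam split sucrose, isomaltose and the ends of starch fragments. Sis stood at 558, 625, 788 and 823 FPKM in cKO replicates 1 to 4 and at 591, 719 and 413 FPKM in Ctrl replicates 1 to 3. Replicates 3 and 4 of cKO lay above every Ctrl library, and the other cKO libraries lay within the Ctrl range. Sis had the largest positive difference of the members, 0.30 in log2 (SE 0.24, 95% interval -0.26 to 0.86, limma adjusted p = 0.736). Mgam, maltase-glucoamylase, which is related to Sis, stood at 359, 356, 399 and 498 FPKM in cKO and at 398, 409 and 297 FPKM in Ctrl. Only cKO replicate 4 lay outside the Ctrl range. The log2 difference of Mgam was 0.13 (SE 0.19, 95% interval -0.31 to 0.57, limma adjusted p = 0.864), and -0.014 without Ctrl replicate 3.

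Lactase and trehalase split milk sugar and the disaccharide of fungi and insects. Lct stood at 289.8, 279.7, 523 and 477 FPKM in cKO and at 405, 501 and 324 FPKM in Ctrl. Replicates 1 and 2 of cKO lay below every Ctrl library and replicate 3 above every Ctrl library. Its log2 difference was -0.098 (SE 0.28, 95% interval -0.74 to 0.55, limma adjusted p = 0.938), and the sign turned without cKO replicate 1 (0.029), cKO replicate 2 (0.046) or Ctrl replicate 2 (0.057) and after quantile normalization (0.028). Treh stood at 135, 152, 237 and 224 FPKM in cKO and at 225, 267 and 185 FPKM in Ctrl. Here cKO replicates 1 and 2 lay below every Ctrl library and no cKO library lay above them. Treh had the largest negative difference of the members, -0.30 in log2 (SE 0.24, 95% interval -0.85 to 0.26, limma adjusted p = 0.736).

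Alpi, intestinal alkaline phosphatase, had the same arrangement as Treh. It stood at 260.0, 275, 418 and 435 FPKM in cKO and at 348, 476 and 366 FPKM in Ctrl, so that cKO replicates 1 and 2 lay below every Ctrl library and none lay above. Its log2 difference was -0.22 (SE 0.24, 95% interval -0.77 to 0.33, limma adjusted p = 0.811). Treh and Alpi were each other's closest member in profile over the 7 libraries, with a root mean square difference of 0.1135 log2 units between their centred values. The sources used here do not say how reads were divided between Alpi and its relatives Akp3 and Alppl2, which are similar in sequence, but Akp3 stood at no more than 4.32 FPKM and Alppl2 at no more than 2.24 FPKM in any library. The lncRNA gene Gm29371 overlaps the end of Alpi by 10 bases on the opposite strand and reached 0.0707 FPKM in cKO and 0.132 FPKM in Ctrl.

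The exopeptidases Anpep, Enpep and Dpp4 shared one order of libraries at the top. Anpep, aminopeptidase N, which removes neutral residues, stood at 1929, 1853, 2512 and 2860 FPKM in cKO and at 2457, 2205 and 1518 FPKM in Ctrl. Enpep, aminopeptidase A, which removes acidic residues, stood at 342, 352, 453 and 529 FPKM in cKO and at 374, 373 and 297 FPKM in Ctrl. Dpp4, which removes dipeptides that end in proline or alanine, stood at 119, 110.3, 157 and 188 FPKM in cKO and at 117, 129 and 109 FPKM in Ctrl. All 3 were highest in cKO replicate 4 and next in cKO replicate 3, both above every Ctrl library, while the other cKO libraries lay within the Ctrl range, and all 3 were lowest in Ctrl replicate 3. The log2 differences were 0.16 for Anpep (SE 0.28, 95% interval -0.49 to 0.80, limma adjusted p = 0.897), 0.25 for Enpep (SE 0.20, interval -0.21 to 0.72, adjusted p = 0.733) and 0.25 for Dpp4 (SE 0.20, interval -0.22 to 0.71, adjusted p = 0.738). That of Anpep was -0.048 without Ctrl replicate 3. Enpep and Dpp4 were each other's closest member in profile, at 0.0818 log2 units.

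Dpp4 and Anpep are also carried by cells outside the epithelium, Dpp4 by T cells as CD26 and Anpep by myeloid and stromal cells as CD13. The 10 T cell and intraepithelial lymphocyte markers summed to 280.4, 332, 546 and 680.0 FPKM in cKO replicates 1 to 4 and to 1069, 436 and 484 FPKM in Ctrl replicates 1 to 3. Within cKO the sum was highest in replicates 3 and 4, as Dpp4 was, and over all libraries in Ctrl replicate 1, where Dpp4 stood at 117 FPKM. Among them Gzma was the most abundant, at 290.6 ± 117 FPKM in cKO (SD, n = 4) and 428 ± 234 FPKM in Ctrl (SD, n = 3). The 10 myeloid markers summed to at most 10.4 FPKM in cKO and 12.5 FPKM in Ctrl, and 7 of them averaged under 1 FPKM. Of the 10 fibroblast and muscle markers 9 averaged under 1 FPKM, as did all 8 endothelial and pericyte markers. Of 10 acinar markers of the pancreas, 7 were listed at 0 in every library, while Cela1 stood between 5.34 and 9.03 FPKM in cKO and between 4.08 and 10.3 FPKM in Ctrl. The part of these cells in the level of any member was not tested.

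The meprins are secreted or membrane-bound metalloproteinases built from alpha and beta chains. Mep1a stood at 71.2, 41.5, 82.2 and 80.2 FPKM in cKO and at 55.8, 74.3 and 56.5 FPKM in Ctrl, with the lowest value of all libraries in cKO replicate 2. Mep1b stood at 420.4, 357, 585 and 534 FPKM in cKO and at 484, 474 and 396 FPKM in Ctrl, again lowest in cKO replicate 2. The cKO libraries thus lay on both sides of the Ctrl range for both chains. The log2 difference was 0.11 for Mep1a (SE 0.25, 95% interval -0.47 to 0.68, limma adjusted p = 0.923) and 0.049 for Mep1b (SE 0.21, interval -0.43 to 0.53, adjusted p = 0.961). The sign of Mep1b turned without cKO replicate 3 (-0.061), cKO replicate 4 (-0.018) or Ctrl replicate 3 (-0.042). The beta chain was several times as abundant as the alpha chain in every library.

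**Figure D2:**
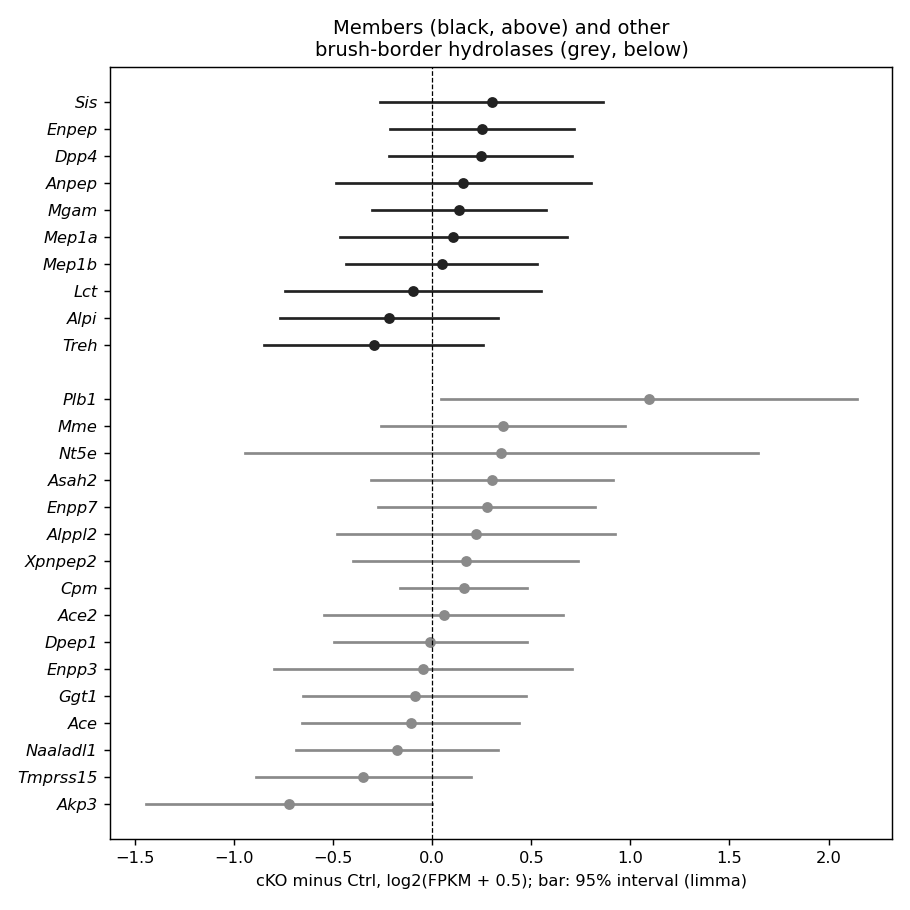
Difference between cKO and Ctrl on the log2(FPKM + 0.5) scale with its 95% interval from limma, for the 10 members (black, from 0.30 for Sis to -0.30 for Treh) and the 16 other brush-border hydrolases that could be tested (grey). All 10 intervals of the members include 0.

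Ratios between members within a library do not depend on how libraries were scaled, and 5 were compared. Lct relative to Sis was the ratio that separated the groups. It stood at 0.519, 0.448, 0.664 and 0.579 in cKO replicates 1 to 4 and at 0.685, 0.696 and 0.785 in Ctrl replicates 1 to 3, so that all cKO libraries lay below all Ctrl libraries. In log2 the ratio differed by -0.40 (SE 0.15, 2-sided exact permutation p = 0.0571, adjusted over the 5 ratios p = 0.286). The value 0.0571 is the smallest that 4 against 3 libraries allow, so no ratio could pass 0.05. Without 1 library at a time this difference lay between -0.49 and -0.30. Treh relative to Mgam stood at 0.375, 0.428, 0.594 and 0.451 in cKO and at 0.567, 0.654 and 0.623 in Ctrl, where only cKO replicate 3 reached the Ctrl range. In log2 it differed by -0.43 (SE 0.17, exact permutation p = 0.114, adjusted p = 0.286).

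The other ratios overlapped widely. Sis relative to Mgam lay between 1.56 and 1.97 in cKO and between 1.39 and 1.76 in Ctrl (log2 difference 0.17, SE 0.12, exact permutation p = 0.286, adjusted p = 0.476). Mep1b relative to Mep1a lay between 5.90 and 8.60 in cKO and between 6.38 and 8.67 in Ctrl (log2 difference -0.058, SE 0.17, exact permutation p = 0.800, adjusted p = 0.800). Enpep relative to Anpep lay between 0.177 and 0.190 in cKO and between 0.152 and 0.196 in Ctrl (log2 difference 0.094, SE 0.091, exact permutation p = 0.400, adjusted p = 0.5). Among the 4 cKO libraries the highest value was 1.54 times the lowest for Anpep and 1.55 times for Enpep.

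**Figure D3:**
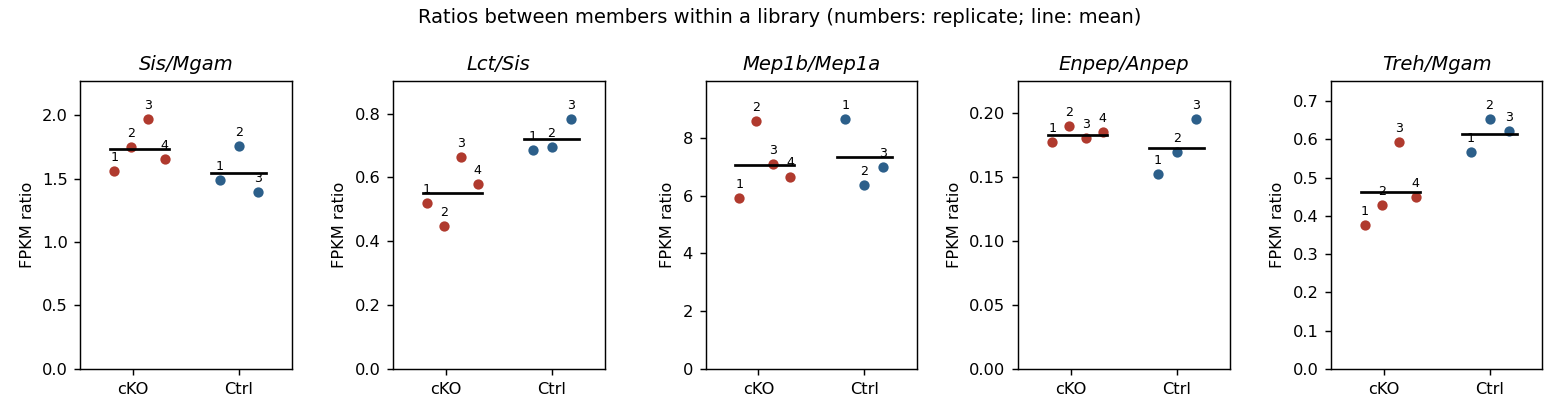
FPKM ratio of 5 pairs of members in each cKO library (red) and each Ctrl library (blue), with replicate numbers and the mean as a line, on axes from 0. Lct/Sis is the ratio without overlap, with cKO at most 0.664 and Ctrl at least 0.685.

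Within cKO the libraries differed from each other as a set. In deposited FPKM, all 10 members stood higher in both cKO replicates 3 and 4 than in both cKO replicates 1 and 2. This arrangement was noticed in these values, and 28.6% of all genes tested showed it. The deposited scaling differed between these libraries. The authors' divisor was 1.08, 1.10, 0.991 and 0.891 times the recovered reads in cKO replicates 1 to 4. Scaled by recovered reads instead, Mep1a was lower in cKO replicate 4 than in replicate 1 and lost the arrangement. Counts of the arrangement below are in deposited FPKM. The highest member value in cKO was between 1.40 and 1.98 times the lowest, for Mgam and Mep1a. Relative to the Ctrl mean, the median member lay at -0.043, -0.23, 0.38 and 0.41 log2 units in cKO replicates 1 to 4, and at 0.045, 0.21 and -0.25 in Ctrl replicates 1 to 3. Libraries of both groups thus lay on both sides of the Ctrl mean.

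Most listed genes of the microvillus showed the same arrangement, most crypt genes the opposite, and the Paneth cell genes Lyz1 and Defa24 also the opposite. Of 12 genes of microvillus structure, 10 stood higher in both cKO replicates 3 and 4 than in replicates 1 and 2. Vil1, the actin bundler villin and the most abundant of them, stood at 810, 733, 959 and 1187 FPKM in cKO and at 993, 1074 and 897 FPKM in Ctrl. The same held for 9 of 11 enterocyte markers and 7 of 10 transporters that take up the products, among them Slc5a1, the sodium-glucose transporter, at 904, 853, 1198 and 1479 FPKM in cKO and at 1299, 1202 and 755 FPKM in Ctrl. Of 12 crypt and cell cycle markers 11 stood lower in both cKO replicates 3 and 4, against 26.3% of all genes tested. Olfm4, a marker of crypt base cells, stood at 492, 452, 296 and 207 FPKM in cKO and at 367, 304 and 333 FPKM in Ctrl. The 11 secretory cell markers summed to 18964 and 18089 FPKM in cKO replicates 1 and 2 and to 5814 and 6826 FPKM in replicates 3 and 4, beside 10836, 15682 and 24661 FPKM in Ctrl. The fall in this sum lay mainly in Defa24, Lyz1 and Itln1. Of the 11, 4 stood lower in both cKO replicates 3 and 4 (Lyz1, Defa24, Itln1 and Chgb) and 2 higher (Dclk1 and Trpm5). Muc2, Tff3, Fcgbp, Clca1 and Chga did neither. Lyz1, the lysozyme of Paneth cells, stood at 5049, 4577, 1207 and 1008 FPKM in cKO and at 2277, 2628 and 3042 FPKM in Ctrl. Defa24, a Paneth cell defensin of a family of near-identical genes whose reads may be shared, stood at 9268, 8484, 2125 and 2033 FPKM in cKO and at 4550, 9439 and 16415 FPKM in Ctrl. All 9 tested T cell markers were higher in cKO replicates 3 and 4 as well. Whether the makeup of the samples or the state of their cells accounts for this was not tested.

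**Figure D4:**
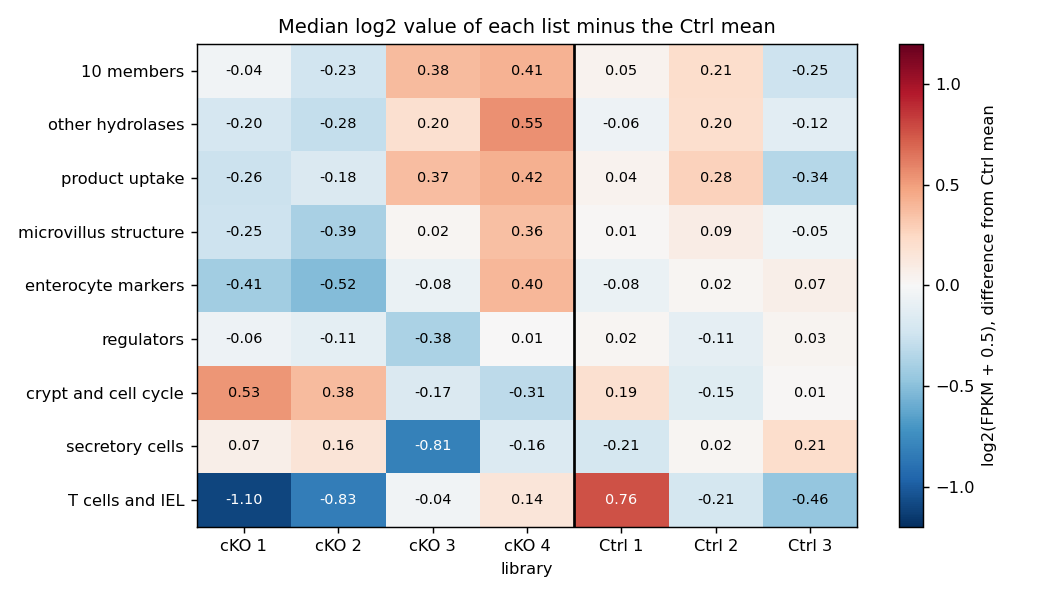
Median over each gene list of log2(FPKM + 0.5) minus the gene's Ctrl mean, in the 4 cKO libraries (left of the line) and 3 Ctrl libraries (right); red is above and blue below the Ctrl mean. The members run from -0.23 in cKO replicate 2 to 0.41 in cKO replicate 4, and crypt and cell cycle genes from 0.53 in cKO replicate 1 to -0.31 in cKO replicate 4.

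Factors known to activate these genes were measured too. Among 13 regulators, 2 were higher and 2 lower in both cKO replicates 3 and 4, and none passed the test between the genotypes (0 of 13 in limma, 0 at an unadjusted p under 0.05). The median log2 difference of the 13 was -0.12, with 3 above and 10 below Ctrl. Elf3, an epithelial factor with the highest mean over the 7 libraries, averaged 155 ± 33.9 FPKM in cKO (SD, n = 4) and 205 ± 75.8 FPKM in Ctrl (SD, n = 3). Hnf4a stood above it in cKO, at 166 ± 25.5 FPKM in cKO and 179 ± 32.0 FPKM in Ctrl. Hnf4g averaged 121 ± 13.5 FPKM in cKO and 99.3 ± 21.1 FPKM in Ctrl, a log2 difference of 0.30 (SE 0.17, limma adjusted p = 0.627). Gata4, which in mouse sustains the proximal programme including Lct, averaged 46.7 ± 4.56 FPKM in cKO and 52.2 ± 1.70 FPKM in Ctrl, a log2 difference of -0.16 (SE 0.11, limma adjusted p = 0.690). It was the 1 of 13 regulators without overlap, at most 50.1 FPKM in cKO and at least 50.4 FPKM in Ctrl. Of all genes tested 10.1% were without overlap.

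Other hydrolases of the brush border were measured from a list of 19 genes, of which 17 were in the table and 16 were tested. None was called (0 of 16 in limma, 1 at an unadjusted p under 0.05), 9 stood above Ctrl and 7 below, and the median log2 difference was 0.11. Ace, angiotensin-converting enzyme and the most abundant, averaged 535 ± 88.3 FPKM in cKO (SD, n = 4) and 586 ± 156 FPKM in Ctrl (SD, n = 3). Plb1, a phospholipase, stood at 40.3, 11.7, 14.4 and 26.5 FPKM in cKO and at 8.83, 6.01 and 15.5 FPKM in Ctrl. Its log2 difference of 1.09 (SE 0.46, 95% interval 0.045 to 2.14) had a limma adjusted p of 0.542, and the groups overlapped. Akp3, the duodenal phosphatase given above, had a log2 difference of -0.72 (SE 0.31, limma adjusted p = 0.554). Of the 16, 12 were higher in both cKO replicates 3 and 4 than in replicates 1 and 2, against 28.6% of all genes tested.

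By profile over the 7 libraries, some genes outside the set came closer to single members than other members did. The measure was the root mean square difference of mean-centred log2(FPKM + 0.5), searched over 11407 genes averaging 1 FPKM or more, a pool large enough that near matches to a 7-library profile are easy to find. Pdzd11 and Apoo were nearest to Mgam at 0.0323 and 0.0512 log2 units, against 0.0995 for its closest member Enpep. Stx7 and Rab11a were nearest to Enpep at 0.0486 and 0.0539, and Lap3, a cytosolic leucine aminopeptidase, and Smim7 to Mep1b at 0.0471 and 0.0508. Rybp and Gng12 were nearest to Dpp4 at 0.0495 and 0.0592, Ebpl and Slc43a2 to Lct at 0.0573 and 0.0715, and Stk10 and Spns2 to Alpi at 0.0604 and 0.0786. For Treh they were Dcxr and Fbln1 at 0.0671 and 0.0752, for Sis Ddhd1 and Mtus1 at 0.0786 and 0.0997, and for Anpep Sccpdh and Rab11a at 0.0816 and 0.0817. Mep1a had the most distant neighbours, Gm31034 at 0.0986 and an entry without a symbol at 0.1124.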

How the data were processed

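The authors deposited FPKM, 1 value for each of the genes in each library, beside gene length and coordinates. HISAT2 is named as a tool per the submitters' processing notes. The sources used here do not state its version, the counter, the strand setting or the annotation. Chromosome accessions in the table are those of GRCm39, and promoter sequences are from GRCm38.p6. FPKM times length was a whole multiple of 1 step in 100% of deposited values above 0 (tolerance 0.01), which gave the reads. The size by which the authors had divided lay between 0.891 and 1.10 times these totals.

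Genes averaging 0.5 FPKM or more entered the test, on log2(FPKM + 0.5), which understates changes of low genes, with limma 3.58.1 in R 4.3.3 (lmFit, eBayes with a trend, 2-sided, Benjamini-Hochberg over all genes tested, threshold 0.05, no covariate). It was tested on simulated data. Ratios were compared by exact permutation over 35 splits. Counting error covers reads only. The 17 gene lists, members included (178 of 181 entries found in the table), and the tests were chosen with earlier results of these data known. Named genes were all members, Stk24, in other lists the most abundant and the 2 of smallest p where they bear on the members, and the 2 closest profiles; markers of regions and Paneth cells, Hnf4a and relatives of Alpi were named after their values were seen. Alternatives were other pseudocounts, filters, scalings, variance models, array weights, voom, the replicate number as a block, and leaving out each library.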

Additional observations from a re-analysis of the deposited data

How the results depend on the processing

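No member was called under any of the 14 alternatives or without any 1 library (0 of 10 in limma each time). At an unadjusted limma p under 0.05 there were 2 of 10 members after quantile normalization, beside 1300 of all 13057 genes tested. With array weights there was 1 of 10, beside 1702 of 13057. The number of genes called over the whole table was 4, and 1 with a pseudocount of 0.1, with no filter, with a mean of at least 1 FPKM and after removal of the length trend. Without single libraries it lay between 1 and 7, at 7 without cKO replicate 1, 2 without Ctrl replicate 1 and 1 without any other. Replicate numbers here are those of the sample titles, and whether they pair the libraries is not known. The deposited columns are numbered otherwise, and there no cKO column shares its number with a Ctrl column. Ctrl replicates 2 and 3 are the columns Ctrl_3 and Ctrl_4. Deviations of same-numbered libraries correlated over genes at 0.12, -0.087 and -0.13, and those of unlike-numbered libraries at -0.18 to 0.31. So few libraries cannot exclude pairing. With the replicate numbers as a block, on 6 libraries without cKO replicate 4, limma called 0 genes (1052 at an unadjusted p under 0.05), and Mep1b stood at -0.018. With array weights 7 members lay below Ctrl, and the log2 differences of Mgam (-0.0058), Anpep (-0.034), Mep1a (-0.13) and Mep1b (-0.12) changed sign, as did that of Lct after quantile normalization (0.028); the cause was not tested. Leaving out single libraries gave 2 to 6 members below Ctrl, and log2 differences from -0.26 to 0.057 for Lct, -0.014 to 0.22 for Mgam, -0.048 to 0.30 for Anpep and -0.061 to 0.18 for Mep1b. The log2 ratio of Mep1b to Mep1a then differed by -0.15 to 0.066. Sis, Dpp4 and Enpep stayed above Ctrl, and Treh and Alpi below, in every alternative run. A rescaling by recovered reads and one relative to microvillus genes, both chosen after seeing the data, each left 3 members below Ctrl. Counting error was at most 2.16% of any member value; what limits the calls was not tested.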

Other observations

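Peptidases inside the cell finish the digestion of the peptides taken up. Of 9 cytosolic peptidase genes 0 were called in limma, with 1 at an unadjusted p under 0.05. Of the 9, 4 were higher in both cKO replicates 3 and 4 than in replicates 1 and 2, against 28.6% of all genes tested. Pepd, which splits dipeptides ending in proline, averaged 344 ± 93.1 FPKM in cKO (SD, n = 4) and 362 ± 46.2 FPKM in Ctrl (SD, n = 3). Dpp7, a lysosomal dipeptidyl peptidase on the list, stood at 5.22, 4.74, 4.14 and 5.11 FPKM in cKO and at 5.71, 5.52 and 7.28 FPKM in Ctrl, without overlap (log2 difference -0.33, SE 0.14, limma adjusted p = 0.542). It was named as the gene of smallest p on its list, and 10.1% of all genes tested were without overlap.

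Fabp1, which binds fatty acids inside enterocytes, stood at 1407, 989.8, 819 and 1658 FPKM in cKO and at 2815, 2709 and 2499.7 FPKM in Ctrl, without overlap (log2 difference -1.19, SE 0.29, limma adjusted p = 0.473). In cKO replicate 3, where Lct, Mep1a and Mep1b were highest of all libraries, Fabp1 was lowest. Slc1a1, the transporter of acidic amino acids such as those Enpep releases, stood at 20.4, 19.8, 20.2 and 19.8 FPKM in cKO and at 17.3, 15.8 and 15.9 FPKM in Ctrl, without overlap (log2 difference 0.29, SE 0.090, limma adjusted p = 0.511). Fabp1 and Slc1a1 were likewise picked for the smallest p on their lists, beside the 10.1% of all genes tested without overlap.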
